A study of Mus musculus with 12 samples.

Results

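The genes described here are 10 members of the Wnt and β-catenin pathway, chosen by name from the 46731 genes of the expression table. They are the ligand *Wnt5a*, the secreted Dickkopf protein *Dkk3*, the co-receptors *Lrp5* and *Lrp6*, the scaffolds *Axin1* and *Axin2*, β-catenin itself (*Ctnnb1*) and the DNA-binding partners *Tcf7l1*, *Tcf7l2* and *Lef1*. All 10 were found in the table, and 8 of them reached 1 FPKM (fragments scaled by gene length and by library size) in 3 or more libraries, as did 12368 genes overall. *Axin2* and *Lef1* stayed under that level. RNA-seq had been performed on 12 libraries of ATDC5, a mouse chondrogenic line derived from a teratocarcinoma, in 4 groups of 3. Cells carried a stably integrated lentiviral hairpin, expressed from a U6 promoter and selected with puromycin, either a non-targeting control (shRNA-NC) or a single hairpin against *Ddx5* (shRNA-Ddx5). Each line was kept in plain medium or given 5 ng/ml IL-1β with 25 ng/ml TNF-α, and both conditions lasted 6 h. The comparison asks what reduced *Ddx5*, an RNA helicase gene studied here in cartilage degeneration, does to the transcriptome with and without inflammatory cytokines. All 12 libraries came from hairpin-carrying, puromycin-selected cells, and with 1 hairpin per line an effect of that hairpin or of that line and an effect of losing *Ddx5* cannot be told apart.

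In the canonical pathway a Wnt protein bridges a Frizzled receptor and LRP5 or LRP6, which draws Axin to the membrane and stops the Axin, APC, GSK3 and CK1 complex from marking β-catenin for destruction. β-Catenin then enters the nucleus and binds TCF/LEF proteins, which otherwise hold target genes down with Groucho/TLE co-repressors. In growth-plate and articular cartilage the pathway steers the choice between chondrocyte and osteoblast fates and the maturation of chondrocytes, and both too much and too little signalling damage cartilage. mRNA levels such as these do not measure β-catenin protein or its place in the cell.

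The libraries held between 14119199 and 19276520 fragments on genes. *Ddx5* checked the labels: shRNA-Ddx5 libraries held 32.3% of the shRNA-NC mean in medium and 32.1% with cytokines, and no library of one line overlapped the other. Its paralog *Ddx17* rose 2.06-fold in medium and 2.92-fold with cytokines (limma, adjusted p = 9.2e-06 and 7.69e-07). How reads were assigned between such related genes was not tested. Of 13 chondrocyte markers, 5 reached 1 FPKM in any library, while *Acan*, *Matn1*, *Matn3* and *Cnmd* stayed under 0.1 FPKM in all 12, and the type II collagen gene *Col2a1* averaged 12.4 FPKM in shRNA-NC medium and 0.899 in shRNA-Ddx5 medium. The list did not move as one: of its 5 tested genes 1 rose and 2 fell with the knockdown in medium and 1 rose and 3 fell with cytokines. In the same comparisons 47.0% and 45.6% of all tested genes passed an adjusted p of 0.05 (limma). *Col2a1* and *Col11a2* fell in both conditions, while the collagen gene *Col11a1* rose 5.32-fold and 10.7-fold (limma, adjusted p = 2.31e-06 and 1.75e-06) and the low genes *Sox6*, *Col9a1* and *Hapln1* rose in both with voom. The summed chondrocyte list ran from 41.8 to 48.1 FPKM in shRNA-NC medium, 32.5 to 35.3 in shRNA-Ddx5 medium, 14.7 to 21.2 in shRNA-NC cytokines and 11.9 to 12.1 in shRNA-Ddx5 cytokines. The summed fibroblast and myofibroblast list, with 6 of 8 markers at 1 FPKM, moved the other way with the knockdown, from between 549.7 and 567.9 FPKM to between 2125 and 2212 in medium and from between 258.2 and 427.7 to between 1613 and 1852 with cytokines. The 7 hypertrophic chondrocyte markers, 4 of them at 1 FPKM, summed to 16.8 to 21.1 FPKM in shRNA-NC medium, 50.7 to 53.8 in shRNA-Ddx5 medium, 18.6 to 48.0 in shRNA-NC cytokines and 52.2 to 56.4 in shRNA-Ddx5 cytokines. Of the 3 tested, 3 rose and 0 fell with the knockdown in medium and 2 rose and 0 fell with cytokines (limma), where 25.3% and 23.5% of all tested genes rose. *Alpl*, the tissue non-specific alkaline phosphatase gene, stood at 0.594 to 1.07 FPKM in shRNA-NC medium and 13.5 to 16.6 in shRNA-Ddx5 medium. The 4 osteoblast markers, 2 of them at 1 FPKM, summed to 5.69 to 6.72, 33.8 to 36.3, 1.36 to 2.80 and 6.64 to 7.31 FPKM in the same order of groups. The 4 adipocyte markers summed to 0.018 to 0.050, 1.252 to 1.615, 0.088 to 0.819 and 1.455 to 2.18 FPKM in that order. Of these, only *Fabp4* was tested, and it reached 1 FPKM only in shRNA-Ddx5 libraries. Its rise with the knockdown in both conditions (limma) was thus bound to the filter that let it be tested. *Myod1*, *Myog*, *Des*, *Ckm*, *Epcam* and *Krt8* stayed under 0.1 FPKM in all libraries. The haematopoietic marker *Cd68* reached 1 FPKM and passed no simple comparison. The chondrocyte, fibroblast, hypertrophic chondrocyte, osteoblast and adipocyte lists moved with the groups compared for every pathway gene below. Their part in those results was not tested, and in bulk RNA fewer cells of a type and less RNA per cell cannot be told apart.

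Windows from 250 bases before to 50 after the annotated start were found in RefSeq (GRCm38.p6) for 5 of the 10 members, 10 windows in all. Windows are shown for *Tcf7l1* and *Tcf7l2*, which moved together across the groups, and for *Axin2*, the usual reporter gene of β-catenin activity, because the study concerns how DDX5 unwinds G-quadruplex DNA. Capitals mark the G-quadruplex motif, which is 4 runs of at least 3 G with spacers of 1 to 7 bases on the printed strand, or the same pattern in C where it lies on the opposite strand. The G-quadruplex that the paper reports in the *Col2* promoter has shorter runs of G, so this motif would not mark it. The *Tcf7l1* window lies at chr6:72788996-72789295 on the minus strand, the printed *Tcf7l2* window at chr19:55741560-55741859 on the plus strand and the *Axin2* window at chr11:108920099-108920398 on the plus strand.
Tcf7l1: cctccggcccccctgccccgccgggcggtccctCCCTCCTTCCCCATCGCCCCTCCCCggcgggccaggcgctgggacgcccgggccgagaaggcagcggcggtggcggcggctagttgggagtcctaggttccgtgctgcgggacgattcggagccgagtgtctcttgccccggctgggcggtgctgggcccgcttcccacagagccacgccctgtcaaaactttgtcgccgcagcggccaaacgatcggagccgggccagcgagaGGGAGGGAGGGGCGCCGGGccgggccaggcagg
Tcf7l2: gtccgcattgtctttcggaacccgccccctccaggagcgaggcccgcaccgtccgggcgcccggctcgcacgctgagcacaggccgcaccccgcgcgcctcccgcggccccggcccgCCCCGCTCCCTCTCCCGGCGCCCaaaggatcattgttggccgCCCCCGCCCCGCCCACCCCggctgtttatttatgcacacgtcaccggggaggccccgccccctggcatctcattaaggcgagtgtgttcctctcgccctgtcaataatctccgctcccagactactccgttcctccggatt
Axin2: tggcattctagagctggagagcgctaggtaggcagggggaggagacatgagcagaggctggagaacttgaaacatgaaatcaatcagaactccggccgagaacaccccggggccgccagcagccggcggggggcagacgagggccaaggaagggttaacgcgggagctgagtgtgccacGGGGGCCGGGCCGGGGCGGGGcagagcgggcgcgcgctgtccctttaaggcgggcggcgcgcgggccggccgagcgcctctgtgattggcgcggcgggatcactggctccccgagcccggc
Each of these printed windows held the motif, on both strands for *Tcf7l1*, on the opposite strand for *Tcf7l2* and on the printed strand for *Axin2*. A further *Tcf7l2* window, at chr19:55895071-55895370 and with 42% G and C, held no motif and is not printed. Of the 10 windows of member genes 8 held it, against 18.6% of the 32851 windows in the RefSeq table. That background share is not matched for G and C content. The member windows with the motif held 51.7% to 75.3% G and C, and those without it, of *Tcf7l2* and *Lef1*, held 42% and 43.7%. The share among windows of like content was not tested. The TCF/LEF core CTTTGAT, searched on both strands, was in 0 of the 10 windows and in 3.73% of all windows. The 10 include overlapping windows of *Ctnnb1* and of *Lef1*. G and C made up 75.3%, 70% and 70% of the printed *Tcf7l1*, *Tcf7l2* and *Axin2* windows, and these are matches of letters only. *Axin1*, *Lrp5*, *Lrp6*, *Wnt5a* and *Dkk3* had no window in the table.

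Both extracellular members differed with the hairpin, in opposite directions. WNT5A is a secreted ligand known mainly for β-catenin-independent signalling through ROR and Frizzled receptors (*Wnt5a*, gene 22418, GRCm39 chr14:28224962-28249405, plus strand, protein-coding, as are all members). In medium it stood at 2.06, 1.98 and 2.53 FPKM in shRNA-NC and at 3.42, 3.15 and 3.6 FPKM in shRNA-Ddx5. With cytokines it stood at 0.916, 1.25 and 0.901 FPKM in shRNA-NC and at 2.92, 2.90 and 2.43 FPKM in shRNA-Ddx5. Within each condition the shRNA-Ddx5 values all exceeded the shRNA-NC values, and the shRNA-NC cytokine libraries were the lowest of the 12. The knockdown difference on the log2(FPKM + 1) scale was 0.46 ± 0.10 (SE, 3 libraries per group) in medium and 0.89 ± 0.10 with cytokines, and *Wnt5a* passed the limma test in both (adjusted p = 0.00382 and 5.12e-05). That scale understates changes at such low levels, and the ratios of mean FPKM were 1.55 and 2.69. Cytokines lowered *Wnt5a* by -0.66 ± 0.10 in shRNA-NC cells (limma, adjusted p = 0.000664), to 46.7% of the level in medium. In shRNA-Ddx5 cells the cytokine difference was -0.23 with a 95% interval of -0.46 to 0.00 (limma, adjusted p = 0.13). The difference between the 2 knockdown effects was 0.43 ± 0.15 and did not pass (limma, adjusted p = 0.103), whereas on fragments weighted with voom it was 0.79 ± 0.20 and passed (voom, adjusted p = 0.0366).

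*Dkk3* moved furthest among the members, with an 11.2-fold range between its highest and lowest group means (gene 50781, chr7:111715226-111758689, minus strand). Its product is a secreted glycoprotein of the Dickkopf family that, unlike DKK1, is not an established inhibitor of LRP5/6. shRNA-NC cells in medium held 6.42, 7.82 and 7.04 FPKM, and shRNA-Ddx5 cells in medium held 2.54, 2.78 and 2.12 FPKM. With cytokines the values were 1.2, 1.75 and 2.36 FPKM in shRNA-NC and 0.724, 0.613 and 0.566 FPKM in shRNA-Ddx5. The shRNA-NC medium libraries stood clear above all others and the shRNA-Ddx5 cytokine libraries clear below, while the other 2 groups overlapped. *Dkk3* fell with the knockdown to 34.9% of control in medium and 35.8% with cytokines (log2 differences -1.22 ± 0.14 and -0.74 ± 0.14, limma adjusted p = 5.27e-05 and 0.00148). It fell with cytokines to 25% of the medium level in shRNA-NC and 25.6% in shRNA-Ddx5 (-1.56 ± 0.14 and -1.09 ± 0.14, limma adjusted p = 1.19e-05 and 0.000161). The log2(FPKM + 1) scale compresses values under 1 FPKM, and the interaction was 0.48 ± 0.20 (limma, adjusted p = 0.179) and 0.09 ± 0.34 on fragments (voom, adjusted p = 0.912). The shRNA-Ddx5 cytokine libraries held 32 to 43 *Dkk3* fragments each, the fewest behind any of the tested members.

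**Figure D1:**
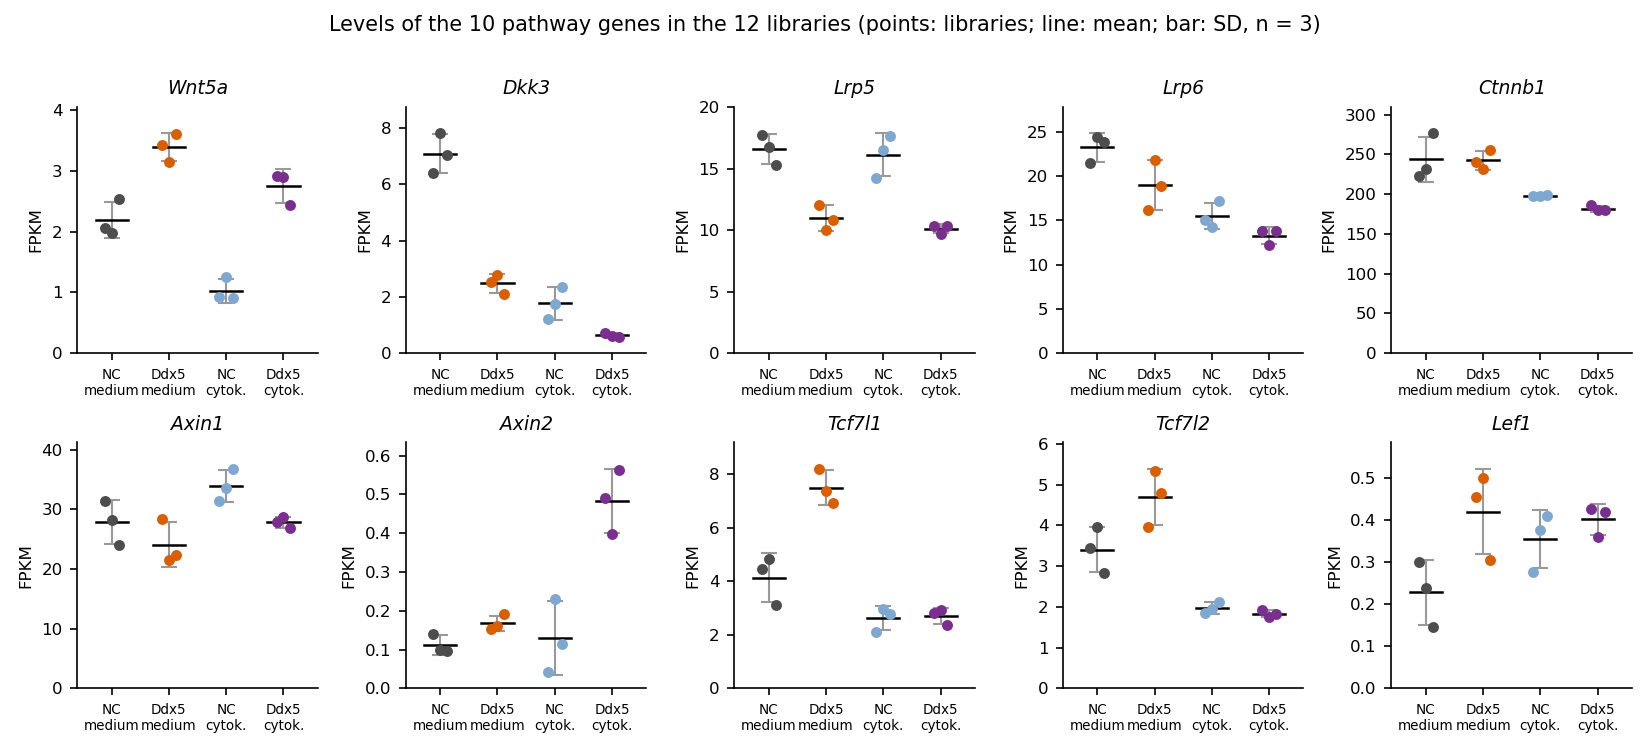
FPKM (vertical axis, linear, from 0, one panel per gene with its own scale) of the 10 pathway members in each of the 12 libraries, by group; points are libraries, the line is the group mean and the bar its SD. Dkk3 is highest in shRNA-NC medium (6.42 to 7.82), Tcf7l1 and Tcf7l2 are highest in shRNA-Ddx5 medium, and Axin2 is highest in shRNA-Ddx5 cytokines (0.398 to 0.562).

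Of the paired co-receptors, *Lrp5* passed the test in both knockdown comparisons and *Lrp6* in both cytokine comparisons. LRP5 and LRP6 are single-pass receptors whose phosphorylated tails dock Axin, and LRP5 is known for its part in bone mass. *Lrp5* (gene 16973, chr19:3634825-3736574, minus strand) stood at 17.8, 16.8 and 15.3 FPKM in shRNA-NC medium and at 12.1, 9.99 and 10.8 FPKM in shRNA-Ddx5 medium. With cytokines it stood at 14.2, 16.5 and 17.6 FPKM in shRNA-NC and at 10.4, 9.67 and 10.4 FPKM in shRNA-Ddx5. All 6 shRNA-Ddx5 libraries lay below all 6 shRNA-NC libraries, and within each line the medium and cytokine libraries overlapped. *Lrp5* fell to 66.0% of control in medium and 62.8% with cytokines (log2 differences -0.56 ± 0.10 and -0.62 ± 0.10, limma adjusted p = 0.000737 and 0.000373). Its cytokine differences were -0.04 (95% interval -0.25 to 0.17) in shRNA-NC and -0.10 (-0.31 to 0.11) in shRNA-Ddx5 cells.

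*Lrp6* (gene 16974, chr6:134423439-134543876, minus strand) held 21.4, 24.5 and 23.8 FPKM in shRNA-NC medium and 16.1, 21.8 and 18.9 FPKM in shRNA-Ddx5 medium. With cytokines it held 15.0, 14.3 and 17.2 FPKM in shRNA-NC and 13.8, 12.2 and 13.8 FPKM in shRNA-Ddx5. Both lines were lower with cytokines, without overlap, while shRNA-Ddx5 medium replicate 2 reached into the range of the shRNA-NC medium libraries. Cytokines reduced *Lrp6* to 66.7% in shRNA-NC and 70.0% in shRNA-Ddx5 cells (log2 differences -0.56 ± 0.11 and -0.48 ± 0.11, limma adjusted p = 0.00284 and 0.00826). Its knockdown differences were -0.29 ± 0.11 in medium and -0.21 ± 0.11 with cytokines and did not pass (limma, adjusted p = 0.0522 and 0.151). The first lay at the threshold, with -0.34 and an adjusted p of 0.0473 without shRNA-NC medium replicate 1, -0.39 and 0.0146 without shRNA-Ddx5 medium replicate 2, -0.38 and 0.0212 with quantile normalization, -0.38 and 0.0202 with plain scaling to the sum of fragments, and -0.30 and 0.0422 with voom.

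The AXIN paralogs are the limiting scaffolds of the destruction complex. *Axin1* is generally expressed without need of Wnt, whereas *Axin2* is itself induced by β-catenin and TCF and so is read as a target gene. *Axin1* (gene 12005, chr17:26350208-26414785, plus strand) stood at 31.4, 28.3 and 24.0 FPKM in shRNA-NC medium and 28.4, 21.5 and 22.4 FPKM in shRNA-Ddx5 medium. With cytokines it stood at 31.4, 33.6 and 36.8 FPKM in shRNA-NC and 27.9, 28.7 and 26.9 FPKM in shRNA-Ddx5. The medium groups overlapped, and with cytokines every shRNA-NC library lay above every shRNA-Ddx5 library. No comparison of *Axin1* passed the test: the knockdown differences were -0.20 (95% interval -0.46 to 0.06) in medium and -0.28 (-0.54 to -0.02) with cytokines, and the cytokine differences were 0.28 (0.02 to 0.54) and 0.21 (-0.05 to 0.47), with limma adjusted p of 0.183, 0.0779, 0.0887 and 0.225. Without shRNA-Ddx5 medium replicate 1 all 4 passed (-0.32, -0.28, 0.28 and 0.33, limma adjusted p = 0.0375, 0.0384, 0.045 and 0.0457). The knockdown with cytokines passed without shRNA-NC medium replicate 3 (limma, -0.28, adjusted p = 0.0486), with plain scaling (-0.33, 0.0407) and in a fit of only the 6 libraries compared (-0.28, 0.023), the knockdown effects passed under quantile normalization (limma, -0.33 and -0.34, adjusted p = 0.0346 and 0.0311), and the cytokine effect in shRNA-NC passed without shRNA-NC medium replicate 1 (limma, 0.37, adjusted p = 0.0464).

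*Axin2* (gene 12006, chr11:108808654-108841609, plus strand) was low throughout, so its fragments are given beside its levels. shRNA-NC medium libraries held 0.140, 0.0979 and 0.0962 FPKM (16, 11 and 8 fragments), and shRNA-Ddx5 medium libraries held 0.154, 0.160 and 0.190 FPKM (14, 16 and 19 fragments). With cytokines shRNA-NC libraries held 0.0433, 0.231 and 0.115 FPKM (4, 24 and 12 fragments), and shRNA-Ddx5 libraries held 0.492, 0.398 and 0.562 FPKM (45, 35 and 49 fragments). The shRNA-Ddx5 cytokine libraries stood above the other 9 without overlap, and the shRNA-NC cytokine libraries spread widest, from the lowest of the 12 values to a level above every medium library. Under the FPKM filter *Axin2* was not tested. In the voom test on 14967 genes with at least 10 fragments in 3 libraries, *Axin2* rose with the knockdown under cytokines by 2.09 ± 0.41 (log2, 95% interval 1.21 to 2.97, adjusted p = 0.000941). It rose with cytokines in shRNA-Ddx5 cells by 1.49 ± 0.37 (voom, adjusted p = 0.00849). The difference was 0.58 ± 0.46 for the knockdown in medium and -0.02 ± 0.49 for cytokines in shRNA-NC cells (voom, adjusted p = 0.327 and 0.975). The difference between the knockdown effects was 1.51 with a 95% interval of 0.19 to 2.84 and did not pass (voom, adjusted p = 0.17). Both rises passed in all 12 fits that left a library out, at 1.53 to 2.64 for the knockdown and 1.38 to 1.62 for the cytokines.

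*Ctnnb1*, the effector of the pathway and also a link between cadherins and actin at cell junctions, was the most abundant member per length and showed no knockdown difference past the test (gene 12387, chr9:120762466-120789573, plus strand). In medium it held 222, 232 and 276 FPKM in shRNA-NC and 240, 232 and 255 FPKM in shRNA-Ddx5. With cytokines it held 197, 198 and 199 FPKM in shRNA-NC and 186, 180 and 180 FPKM in shRNA-Ddx5. The medium groups overlapped fully, the cytokine libraries all lay below them, and with cytokines the shRNA-Ddx5 libraries lay below the shRNA-NC ones. The knockdown differences were -0.00 (95% interval -0.20 to 0.19) in medium and -0.12 (-0.32 to 0.07) with cytokines (limma, adjusted p = 0.993 and 0.282). *Ctnnb1* fell with cytokines to 81.3% in shRNA-NC and 75.0% in shRNA-Ddx5 cells (log2 differences -0.29 ± 0.09 and -0.41 ± 0.09, limma adjusted p = 0.0258 and 0.00517). The first fall was lost without shRNA-NC medium replicate 3 (-0.20, adjusted p = 0.069), without shRNA-NC cytokine replicate 2 (-0.29, 0.058) or replicate 3 (-0.29, 0.0616), in a fit of only the 6 libraries compared (-0.29, 0.101), and with a pseudocount of 0.1 and no filter (-0.29, 0.052). Under quantile normalization both knockdown differences passed, at -0.31 and -0.32 (limma, adjusted p = 0.0245 and 0.021).

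**Figure D2:**
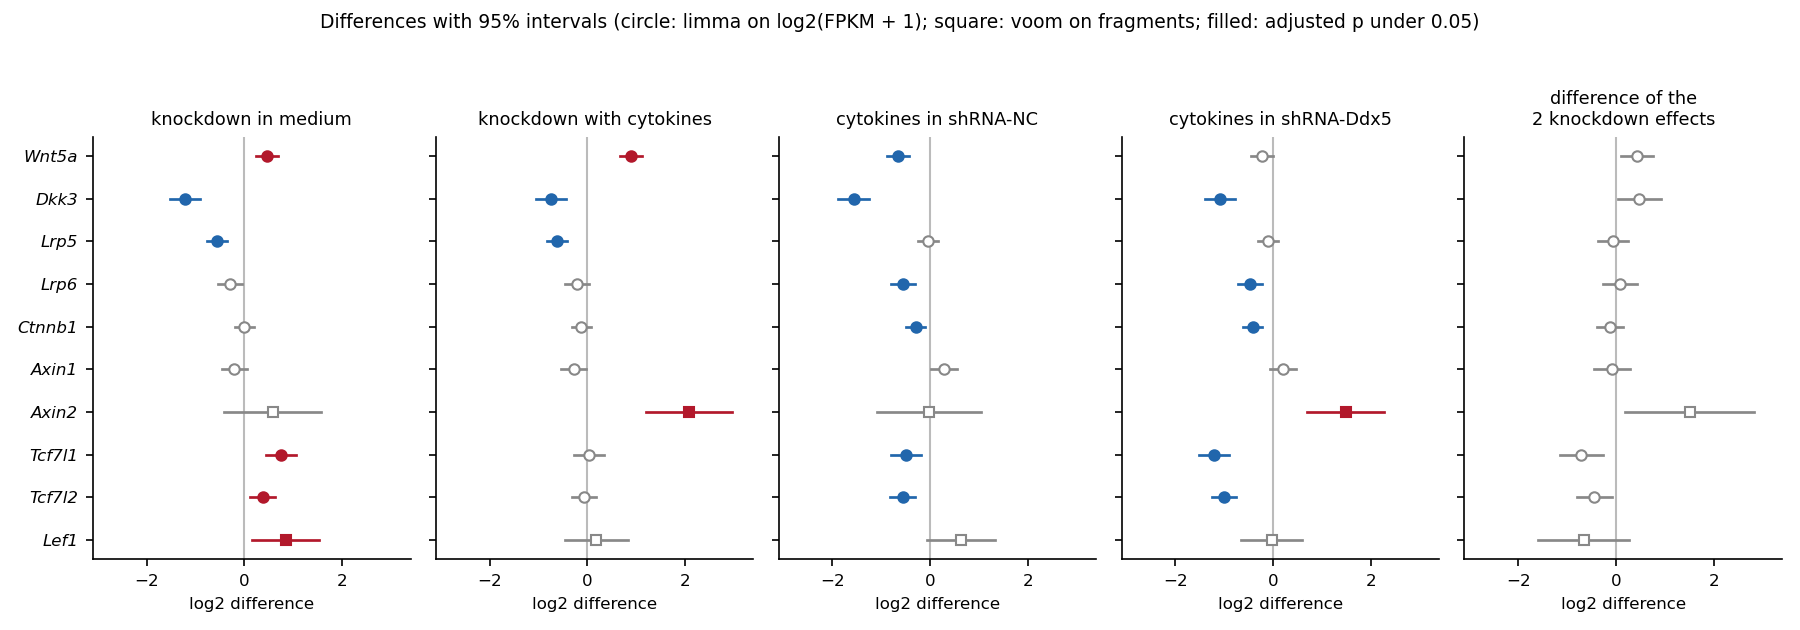
Log2 difference (horizontal axis) of each member for both knockdown contrasts, both cytokine contrasts and the interaction, with 95% intervals; circles are limma on log2(FPKM + 1), squares are voom on fragments for Axin2 and Lef1, and filled symbols passed an adjusted p of 0.05. Dkk3 lies to the left in all 4 simple contrasts, Wnt5a lies to the right under knockdown, and no circle of the interaction is filled.

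*Tcf7l1* and *Tcf7l2*, formerly TCF3 and TCF4, encode DNA-binding partners of β-catenin. TCF7L1 acts mostly as a repressor and TCF7L2 as either. *Tcf7l1* (gene 21415, chr6:72603354-72766028, minus strand) stood at 4.45, 4.84 and 3.10 FPKM in shRNA-NC medium and 8.20, 7.36 and 6.92 FPKM in shRNA-Ddx5 medium. With cytokines it stood at 2.11, 2.96 and 2.78 FPKM in shRNA-NC and 2.83, 2.91 and 2.35 FPKM in shRNA-Ddx5. The shRNA-Ddx5 medium libraries were the highest of the 12, and the 2 cytokine groups overlapped. *Tcf7l1* rose 1.81-fold with the knockdown in medium (log2 difference 0.74 ± 0.14, limma adjusted p = 0.00135) and had a difference of 0.04 with cytokines (95% interval -0.27 to 0.34). It fell with cytokines to 63.4% in shRNA-NC and to 36.0% in shRNA-Ddx5 cells (-0.49 ± 0.14 and -1.20 ± 0.14, limma adjusted p = 0.0189 and 6.62e-05). The shRNA-NC fall was lost without shRNA-NC medium replicate 1 (-0.44, adjusted p = 0.0593) or replicate 2 (-0.39, 0.0788) without shRNA-NC cytokine replicate 1 (-0.39, 0.0676), and in a fit of only the 6 libraries compared, where the difference was the same (0.0686). The interaction was -0.71 ± 0.20 (limma, adjusted p = 0.0527). It passed without shRNA-NC medium replicate 2 (-0.81, 0.0477), without shRNA-NC cytokine replicate 1 (-0.81, 0.0356) and under quantile normalization (-0.73, 0.0413).

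*Tcf7l2* (gene 21416, chr19:55730226-55922091, plus strand) showed the same order of groups at the top. Its shRNA-NC medium libraries held 3.44, 3.95 and 2.83 FPKM and its shRNA-Ddx5 medium libraries 3.96, 5.34 and 4.80 FPKM. With cytokines they held 1.84, 1.95 and 2.12 FPKM in shRNA-NC and 1.92, 1.75 and 1.82 FPKM in shRNA-Ddx5. The lowest shRNA-Ddx5 medium library lay just above the highest shRNA-NC one, and the cytokine groups overlapped beneath both. *Tcf7l2* fell with cytokines to 57.8% in shRNA-NC and 38.9% in shRNA-Ddx5 cells (log2 differences -0.56 ± 0.11 and -1.0 ± 0.11, limma adjusted p = 0.00313 and 5.1e-05). It rose 1.38-fold with the knockdown in medium (0.37 ± 0.11, limma adjusted p = 0.0194), a call lost without shRNA-NC medium replicate 3 (0.27, 0.0701), shRNA-Ddx5 medium replicate 2 (0.29, 0.0703) or shRNA-Ddx5 medium replicate 3 (0.36, 0.0592) with plain scaling to the sum of fragments (0.29, 0.0673), and in a fit of only the 6 libraries compared (0.37, 0.0763). The knockdown difference with cytokines was -0.07 (95% interval -0.32 to 0.18), and the interaction was -0.44 ± 0.16 (limma, adjusted p = 0.122).

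*Lef1* (gene 16842, chr3:130903946-131018006, plus strand), which mostly acts as an activator with β-catenin, was near the limit of detection. Its shRNA-NC medium libraries held 0.299, 0.239 and 0.147 FPKM (28, 22 and 10 fragments) and its shRNA-Ddx5 medium libraries 0.456, 0.500 and 0.306 FPKM (34, 41 and 25 fragments). With cytokines they held 0.277, 0.376 and 0.410 FPKM (21, 32 and 35 fragments) in shRNA-NC and 0.426, 0.360 and 0.420 FPKM (32, 26 and 30 fragments) in shRNA-Ddx5. The medium groups were separated narrowly and the cytokine groups overlapped. The knockdown difference in medium was 0.85 ± 0.32 on the log2 scale (voom, adjusted p = 0.0432). Leaving out single libraries ended that call in 7 of 12 fits, with values of 0.61 to 0.89 and adjusted p up to 0.138 (the highest without shRNA-NC medium replicate 3), with the replicate number as a block (0.86, 0.0503), and with a pseudocount of 0.1 and no filter (limma, 0.67, 0.0912). The other *Lef1* differences were 0.19 for the knockdown with cytokines, 0.63 for cytokines in shRNA-NC and -0.03 for cytokines in shRNA-Ddx5 (voom, adjusted p = 0.644, 0.155 and 0.953). The fourth family member *Tcf7*, listed among the other pathway genes, held group means of 0.972 to 1.29 FPKM and passed no comparison.

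Counted over the 8 tested members, the knockdown in medium raised 3 (*Tcf7l1*, *Tcf7l2*, *Wnt5a*) and lowered 2 (*Lrp5*, *Dkk3*), while 47.0% of all tested genes passed in that comparison. With cytokines present it raised *Wnt5a* and lowered 2 (*Lrp5*, *Dkk3*), beside 45.6% of all genes. Neither share of members stood far from its background in this fit, whereas all 8 passed in medium with quantile normalization. Cytokines lowered 6 of 8 members in shRNA-NC cells and 5 of 8 in shRNA-Ddx5 cells, where 15.2% and 13.5% of all genes fell and 33.8% and 27.0% passed in either direction. The share of calls that were rises, over all genes, depended on the scaling. It was 53.8% for the knockdown in medium and 42.5% after plain scaling to the sum of fragments, 55.1% for cytokines in shRNA-NC cells and 43.4% with quantile normalization or 42.2% with plain scaling, and 49.97% for cytokines in shRNA-Ddx5 cells and 39.0% with quantile normalization. No tested member rose with cytokines (limma, with 1 and 0 members up at an unadjusted p under 0.05), and voom on fragments gave 0 members up in shRNA-NC and 1, *Axin2*, in shRNA-Ddx5 cells. *Lrp6*, *Ctnnb1*, *Tcf7l1*, *Tcf7l2* and *Dkk3* fell in both lines and *Wnt5a* in shRNA-NC. The median difference of the tested members was -0.53 and -0.44 in the cytokine comparisons, against 0.02 and 0.00 over all genes, and -0.10 and -0.16 in the knockdown comparisons, against 0.03 and 0.01. Groups did not overlap for 5, 6, 7 and 6 of the 8 members for the knockdown in medium, knockdown with cytokines, cytokines in shRNA-NC and cytokines in shRNA-Ddx5, where 53.5%, 61.6%, 45.7% and 47.3% of all genes did not overlap. In the interaction 0 of 8 members passed limma, 4 had an unadjusted p under 0.05, 1 (*Wnt5a*) passed voom, and 8.21% of all genes passed. With voom, which tests all 10 members, 4 rose and 3 fell with the knockdown in medium (45.8% of 14967 genes passed) and 2 rose and 2 fell with cytokines present (43.6%). Cytokines lowered 6 members in shRNA-NC cells (33.0%) and raised 1 and lowered 5 in shRNA-Ddx5 cells (25.8%), and 1 member passed the interaction (5.77%). The shRNA-NC medium libraries are the control in both the first knockdown and the first cytokine comparison, so those values are not independent.

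Among 120 other pathway genes sorted by textbook role, 71 were tested. The knockdown in medium raised 28 and lowered 16 (62.0% called, against 47.0% of all genes, 25.3% up and 21.7% down), and the knockdown with cytokines raised 20 and lowered 25 (63.4%, against 45.6%, 23.5% up and 22.1% down). Cytokines raised 12 and lowered 18 in shRNA-NC cells (42.3%, against 33.8%, 18.6% up and 15.2% down) and raised 2 and lowered 25 in shRNA-Ddx5 cells (38.0%, against 27.0%, 13.5% in each direction). These are descriptions of the lists, with no test of a list against the other genes. R-spondins bind LGR receptors and keep Frizzled and LRP proteins at the surface by removing the ligases ZNRF3 and RNF43. *Rspo3* held 0.164 to 0.472 FPKM in shRNA-NC medium and 7.23 to 9.26 FPKM in shRNA-Ddx5 medium, and 0.133 to 0.334 against 10.05 to 11.3 FPKM with cytokines. That is a ratio of group means of 28.9 and 50.9, on 6 to 17 fragments per shRNA-NC library (log2 differences 2.87 ± 0.12 and 3.29 ± 0.12, limma adjusted p = 6.19e-08 and 3.53e-08). *Rspo3* met the filter of 1 FPKM in 3 libraries only through shRNA-Ddx5 libraries, so its rise among the tested genes was bound to that filter. Of the 9 listed genes of the R-spondin axis 5 were not tested. Of the 4 tested, with *Rspo3* among them, 3 rose in medium, and 3 rose and 1 fell with cytokines, where 47.0% and 45.6% of all genes were called.

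*Lgr4*, a receptor for R-spondins, rose from 11.6 ± 1.63 to 26.4 ± 3.84 FPKM (mean ± SD, 3 libraries) with the knockdown in medium, and from 5.16 ± 0.0457 to 6.78 ± 0.265 FPKM with cytokines. The knockdown effect on *Lgr4* was smaller with cytokines by -0.78 ± 0.16 (limma interaction, adjusted p = 0.0121), and cytokines lowered it in both lines (-1.03 and -1.81, limma adjusted p = 4.61e-05 and 3.45e-07). *Wls*, which carries Wnt proteins to the cell surface, rose to 75.3 ± 4.34 FPKM against 33.6 ± 4.30 in medium, and to 38.8 ± 1.91 against 24.4 ± 2.42 with cytokines (limma, adjusted p = 8.51e-06 and 0.000372). *Ror2*, a receptor of WNT5A, moved against its ligand under the knockdown. It held 9.05 to 11.7 FPKM in shRNA-NC medium and 5.84 to 6.26 FPKM in shRNA-Ddx5 medium, and it fell in both conditions (-0.70 ± 0.11 and -0.92 ± 0.11, limma adjusted p = 0.000322 and 5.14e-05). Over all 11 tested receptors 6 rose and 3 fell in medium, and 2 rose and 3 fell with cytokines, so 81.8% and 45.5% were called against 47.0% and 45.6% of all genes. *Fzd5* rose 3.24-fold in medium (1.22 ± 0.10, limma adjusted p = 6.55e-06) and *Fzd3* fell to 0.59 ± 0.11 from 1.43 ± 0.166 FPKM (-0.61 ± 0.12, limma adjusted p = 0.0016).

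**Figure D3:**
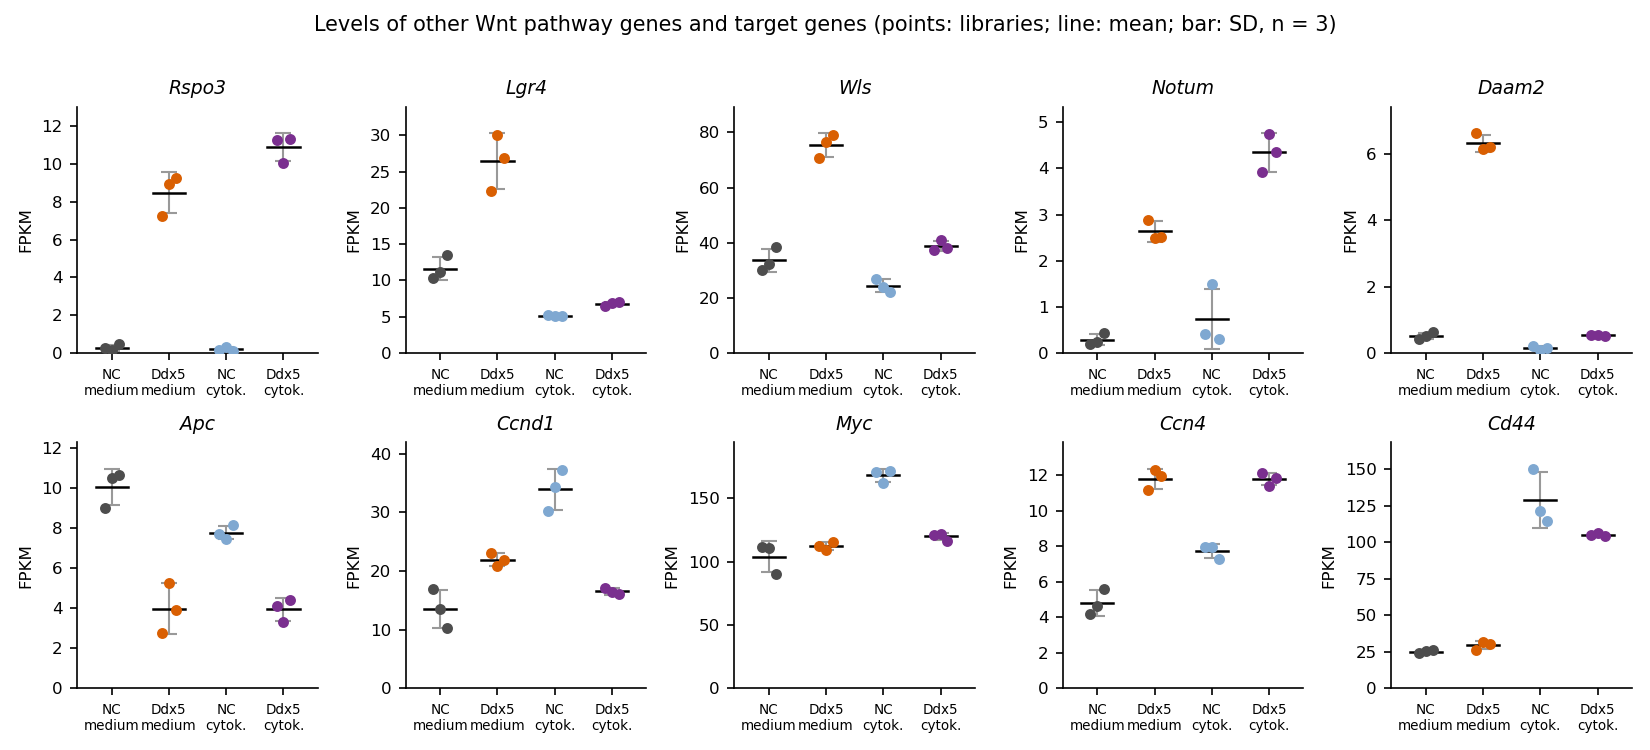
FPKM (vertical axis, linear, from 0, one panel per gene with its own scale) in each of the 12 libraries for the other pathway genes Rspo3, Lgr4, Wls, Notum, Daam2, Apc, Ccnd1, Myc, Ccn4 and Cd44; points are libraries, the line is the group mean and the bar its SD. Rspo3 and Notum are high in both shRNA-Ddx5 groups, Apc is low in both, and Ccnd1 is highest in shRNA-NC cytokines (30.2 to 37.2).

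The destruction complex and its regulators numbered 9 tested genes, of which 1 rose and 2 fell with the knockdown in medium and 1 rose and 5 fell with cytokines, so 33.3% and 66.7% were called against 47.0% and 45.6% of all genes. *Apc*, the scaffold that presents β-catenin for degradation, held 8.98, 10.5 and 10.6 FPKM in shRNA-NC medium and 2.74, 5.25 and 3.92 FPKM in shRNA-Ddx5 medium. With cytokines it held 7.68, 7.47 and 8.12 FPKM in shRNA-NC and 4.09, 3.29 and 4.40 FPKM in shRNA-Ddx5. All 6 shRNA-Ddx5 libraries lay below all 6 shRNA-NC libraries, and *Apc* fell to 39.6% and 50.7% of control (-1.18 ± 0.16 and -0.83 ± 0.16, limma adjusted p = 0.000149 and 0.00145). *Tnks*, a tankyrase that marks Axin for degradation, fell to 57.4% and 68.6% (limma, adjusted p = 9.62e-05 and 0.00139). *Amer1*, a membrane adaptor of APC, rose 1.65-fold and 1.67-fold (limma, adjusted p = 0.00073 and 0.00136). The junction gene *Jup*, plakoglobin and a close relative of β-catenin, fell to 0.446 ± 0.12 FPKM against 1.99 ± 0.179 in medium, and to 0.201 ± 0.0607 against 1.41 ± 0.514 with cytokines (limma, adjusted p = 0.000185 and 0.000285). Of 17 nuclear partners 4 rose and 5 fell in medium, among them the co-activator *Crebbp*, which fell to 43.4% of control (-1.06 ± 0.11, limma adjusted p = 2.25e-05), and 3 rose and 7 fell with cytokines, so 52.9% and 58.8% were called against the 47.0% and 45.6% of all genes.

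**Figure D4:**
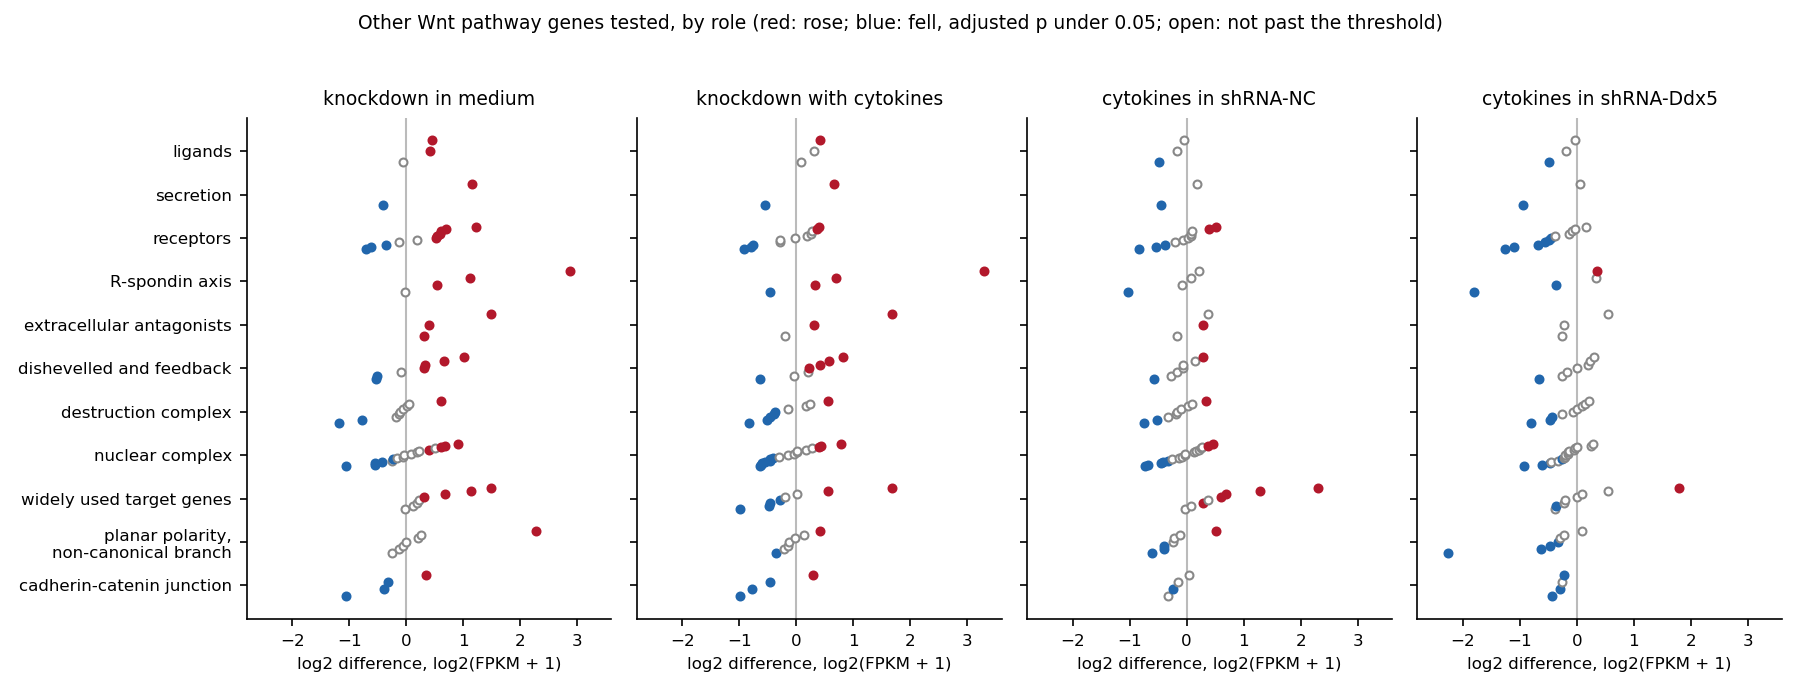
Log2 difference (horizontal axis, limma on log2(FPKM + 1)) of each tested other pathway gene, in rows by role, for both knockdown and both cytokine contrasts; filled points passed an adjusted p of 0.05, and Notum, Apcdd1 and Znrf3 appear in 2 rows each. Rspo3 lies furthest to the right in both knockdown panels, and in the panel of cytokines in shRNA-Ddx5 cells 25 of the 71 genes fell and 2 rose.

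Genes widely used as readouts of β-catenin and TCF did not share 1 direction across both knockdown conditions. The list held 13 genes, and 5 of them were not tested under the FPKM filter. Of the 8 tested, the knockdown raised 4 and lowered 0 in medium (limma, also 0 lower at an unadjusted p under 0.05), where 25.3% of all genes rose and 21.7% fell. With cytokines it raised 2 and lowered 4, where 23.5% of all genes rose and 22.1% fell. In medium and with cytokines 4 and 6 of 8 were thus called, against 47.0% and 45.6% of all genes. These counts hold calls near the threshold: *Apcdd1* in medium (0.31, limma adjusted p = 0.0251) was lost in 7 of 23 alternatives, with 0.24 and 0.088 without shRNA-NC medium replicate 3, and *Cd44* with cytokines (-0.29, 0.0412) in 11 of 23, with -0.17 and 0.134 without shRNA-NC cytokine replicate 1. With voom, which tests 10 of the 13, 6 rose and 0 fell in medium and 3 rose and 4 fell with cytokines. In that test 45.8% and 43.6% of 14967 genes passed. *Notum* and *Ccn4* rose with the knockdown in both conditions (limma). *Notum* met the FPKM filter only through the shRNA-Ddx5 libraries. *Notum*, whose product strips the lipid from Wnt proteins, held 0.207, 0.240 and 0.426 FPKM in shRNA-NC medium and 2.89, 2.499 and 2.52 FPKM in shRNA-Ddx5 medium. With cytokines it held 0.420, 1.497 and 0.308 FPKM in shRNA-NC and 3.93, 4.75 and 4.36 FPKM in shRNA-Ddx5. The groups did not overlap, and shRNA-NC cytokine replicate 2 stood above the other control libraries, as it did for *Axin2* (log2 differences 1.5 ± 0.20 and 1.68 ± 0.20, limma adjusted p = 0.000133 and 5.79e-05). *Ccn4*, a matricellular target gene, rose 2.45-fold and 1.52-fold (1.14 ± 0.09 and 0.55 ± 0.09, limma adjusted p = 4.37e-06 and 0.000576). *Nkd1*, a feedback inhibitor under the FPKM filter, held 0.344 ± 0.019 and 1.00 ± 0.23 FPKM in medium and 0.133 ± 0.0535 and 0.339 ± 0.0473 FPKM with cytokines, and rose by 1.5 and 1.40 (voom, adjusted p = 0.000334 and 0.00927).

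*Ccnd1*, which encodes the G1 cyclin D1, changed direction with the condition. It held 16.9, 13.5 and 10.3 FPKM in shRNA-NC medium, 23.1, 20.9 and 21.9 FPKM in shRNA-Ddx5 medium, 30.2, 34.4 and 37.2 FPKM in shRNA-NC cytokines and 17.1, 16.4 and 16.0 FPKM in shRNA-Ddx5 cytokines. The knockdown libraries were higher in medium and lower with cytokines, without overlap in either. The differences were 0.68 ± 0.14 and -0.99 ± 0.14 (limma, adjusted p = 0.00214 and 0.000184), and the interaction was -1.67 ± 0.20 (limma, adjusted p = 0.000568). *Myc*, a growth-promoting transcription factor gene, had a knockdown difference of 0.12 ± 0.09 in medium (limma, adjusted p = 0.3) and fell by 0.48 with cytokines (limma, adjusted p = 0.00103), from 168 ± 5.29 to 120 ± 2.91 FPKM. Cytokines raised 5 of the 8 target genes in shRNA-NC cells (33.8% of all genes were called, and the *Apcdd1* call was lost in 14 of 23 alternatives), *Cd44* the most, from 25.2 ± 0.978 to 129 ± 18.9 FPKM (2.30 ± 0.10, limma adjusted p = 3.6e-08), and raised 1 and lowered 1 in shRNA-Ddx5 cells (27.0% of all genes). *Cd44*, *Ccnd1* and *Myc* answer to many other signals, among them NF-κB and growth factors. *Daam2*, which encodes a formin that binds Dishevelled, held 0.426 to 0.624 FPKM in shRNA-NC medium, 6.16 to 6.63 in shRNA-Ddx5 medium, 0.099 to 0.222 in shRNA-NC cytokines and 0.521 to 0.559 in shRNA-Ddx5 cytokines. Its knockdown rise in medium, 12.2-fold by mean FPKM, was smaller with cytokines (2.27 ± 0.09 and 0.41 ± 0.09 on the log2(FPKM + 1) scale, limma interaction -1.87 ± 0.12, adjusted p = 2.76e-05). That scale compresses values under 1 FPKM, where all *Daam2* values with cytokines lay. Alternatives that kept all libraries gave 0.25 to 1.81 for the rise with cytokines and -2.07 to -1.83 for the interaction. *Daam2* met the FPKM filter only through the shRNA-Ddx5 medium libraries.

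Likeness of pattern was taken as the root mean square difference of centred log2(FPKM + 1) over the 12 libraries. The genes nearest to *Ctnnb1* were *Zscan21* (0.0546), *Tanc1* (0.0672) and *Lcmt1* (0.0683), against its own SD of 0.205. Nearest to *Wnt5a* were *Foxm1* (0.0918), *Tacc3* (0.0986) and *Knstrn* (0.0992), against an SD of 0.449. Nearest to *Axin2* were *Ndor1* (0.0706), *Pml* (0.0767) and *Lats2* (0.0822), against an SD of 0.187 that rests on 4 to 49 fragments a library. These are descriptions over 4 groups, and any gene with a similar response to hairpin and cytokines on this scale comes out near. The scale compresses values under 1 FPKM, where all *Axin2* values lay, so nearness to *Axin2* does not mean a similar fold change. The voom log2 knockdown difference with cytokines was 0.339 for *Ndor1*, 0.385 for *Pml* and 0.419 for *Lats2*, against 2.09 for *Axin2*.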

How the data were processed

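Poly-A RNA of 12 ATDC5 libraries was sequenced as paired reads. Per the labels and the methods, the authors aligned with HISAT2 2.0.5 and counted with featureCounts 1.5.0-p3 (another version is named elsewhere), and the deposited values are FPKM with GRCm39 coordinates, although the labels name mm10. Whether counting used strand was not given in the sources used here. FPKM times gene length fell on whole multiples of 1 step per library (100.0% of values within 0.05), which gave the fragments. The authors' denominators were 0.957 to 1.08 times the summed fragments. log2(FPKM + 1) of 12368 genes with 1 FPKM in 3 libraries was fitted with limma 3.58.1 in R 4.3.3 as 4 group means (eBayes with trend, Benjamini-Hochberg over all genes tested, threshold 0.05), after tests on simulated data. voom on 14967 genes with 10 or more fragments in 3 libraries was added after seeing the data, for *Axin2* and *Lef1*. With 3 libraries against 3 an exact permutation test cannot go below p = 0.1, so single genes rest on these fits. Replicates are separate samples by their labels, described as independent experiments. Alternatives changed the pseudocount, filter, scaling, variance model, libraries fitted and replicate block, and left out each library in turn. Named genes were all 10 members, *Ddx5*, *Ddx17*, the target genes, up to 2 genes with the largest rise and 2 with the largest fall in each role and simple comparison among those past the threshold without overlap, and the 3 genes nearest in pattern to *Ctnnb1*, *Axin2* and *Wnt5a*. Members and lists were chosen with earlier results of these data known. Counting floors and fragments cover counting error only.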

Additional observations from a re-analysis of the deposited data

Results flagged for a closer look

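Of the pathway genes named, 11 had a knockdown effect that differed between cytokines and medium by limma's interaction test, and the paralog *Ddx17* did too. The values are the log2 effect with cytokines minus that in medium. *Daam2* (-1.87), *Ccnd1* (-1.67), *Fzd5* (-0.87), *Tle4* (-0.84), *Lgr4* (-0.78) and *Myc* (-0.60) passed under every alternative that tested them. *Ccn4* (-0.60) was lost when shRNA-Ddx5 cytokine replicate 2 was left out (-0.57, adjusted p = 0.051). Most alternatives ended the calls of *Apcdd1* (-0.52, lost in 18 of 22), *Tle2* (-0.51, 18 of 21) and *Tle1* (-0.41, 15 of 21). *Cdh2* (-0.47) was lost in 9 of 22 and *Ddx17* (0.49) in 10 of 22. The 11 pathway values were negative, as were 588 of the 1016 interaction calls over all genes (8.21% of those tested), and the *Ddx17* value was positive. None of the 10 member genes was among them by limma.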

How the results depend on the processing

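Of 3726 values of single genes under alternatives, 3486 kept their direction and their side of the threshold, 195 lost and 23 gained the call, and 22 turned sign, all of them differences of members that had not passed. Leaving out single libraries gave a knockdown difference in medium of -0.0641 to 0.0924 for *Ctnnb1*, of -0.0691 to 0.104 with cytokines for *Tcf7l1*, cytokine differences in shRNA-NC of -0.573 to 0.540 for *Axin2* and -0.105 to 0.0407 for *Lrp5*, and in shRNA-Ddx5 of -0.248 to 0.115 for *Lef1*. For the interaction it gave -0.161 to 0.0447 for *Axin1*, -0.142 to 0.0060 for *Lrp5* and -0.0235 to 0.181 for *Lrp6*. *Tcf7l1* with cytokines also turned with plain scaling (-0.0078), *Lrp5* in the interaction with quantile normalization (0.0044), and *Axin2* in shRNA-NC with no filter (0.0208), with pseudocount 0.1 and no filter (0.0443) and with the replicate block (0.0495). The cause was not tested.

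Members past the threshold numbered 3 for the knockdown in medium and 1 with cytokines when every library had to reach 1 FPKM, a filter that leaves out *Wnt5a* and *Dkk3*. Of 10019 genes under that filter 2670 rose and 2117 fell in medium, and 2347 rose and 2255 fell with cytokines. With quantile normalization 8 members passed in medium and 5 with cytokines. There 2783 of 12368 genes rose and 2835 fell in medium, and 2616 rose and 2922 fell with cytokines. In the interaction 1 member passed with quantile normalization, with voom (either filter) and in some fits without a library (0 to 1). Without single libraries the interaction count was 559 to 1123 over all genes, the lowest without shRNA-Ddx5 cytokine replicate 3, and 6 to 11 over the other pathway genes. Same-numbered replicates correlated at -0.394 to 0.448 over 18 pairs (mean -0.045, against 0.0216 for other numbers), and 3 of 12 libraries were closest to their own number. These values show no evident pairing by number, and whether same-numbered samples shared a culture or a day was not tested. The replicate block left 5452, 5232, 3769 and 2902 genes past the threshold in the knockdown comparisons in medium and with cytokines and the cytokine comparisons in shRNA-NC and shRNA-Ddx5, 687 in the interaction, and 7 other pathway genes there in place of 12. Depth limits *Axin2* (4 to 49 fragments a library) and *Lef1* (10 to 41).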
